A study of Pyrus syriaca and Pyrus pyrifolia and Pyrus communis with 12 samples.

Results

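The stigmas of wild and cultivated pears were compared by the microRNAs (miRs) read in them. They made up 6 of the 12 small RNA libraries of the series, and were chosen by the tissue and species that the labels give. The wild class held 3 populations of Pyrus syriaca: Golan (900 m altitude), Manara (450 m) and SASA (830 m). The cultivated class held 3 cultivars grown at 430 m: Spadona of P. communis, the European pear, and Hosui and Shinsui of P. pyrifolia, the Asian pear. All stigmas were non-pollinated and were sampled 12 hours after anthesis (HAA), and the flowers of a genotype were pooled for 1 library. The other 6 libraries held the exudates of the same genotypes. Each genotype stands for 1 library per tissue, and the p-values therefore set the classes against the variation among genotypes. Wild and cultivated stigmas also differed in species, site and number of miR reads, and these cannot be told apart from the class. Manara, at 450 m, grew at nearly the altitude of the cultivars. A miR table holds no markers of stigma cells, so the tissue label could not be checked.

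The stigma is the receptive surface of the pistil, on which pollen lands, hydrates and germinates. Plant miRs are short RNAs that are cut from hairpin precursors, are loaded into ARGONAUTE proteins, and lead these to nearly complementary sites in messenger RNAs, which are then cleaved or poorly translated. Old families such as miR164, miR169 and miR159 mostly act on transcription factors, and the miR482 and miR2118 families on the NBS-LRR class of disease resistance genes. In flowers, miR164 sets organ boundaries through NAC genes, and miR159 acts on GAMYB genes of the anther.

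Names start with the species in which the sequence was described, which is apple (mdm), strawberry (fve) or peach (ppe). The sequences of the miRs that the comparison turns on are given first, because several are near-identical and can take up the same reads. Capitals mark the seed, bases 2 to 8 from the 5′ end.
mdm-miR482d: aAUGGAAGgguaggaaagaag
mdm-miR482a-3p: uUCCCAAGcccgcccauuccua
ppe-miR482c-3p: uUCCCAAGcccgcccauuccaa
mdm-miR482a-5p: aGGAAUGGgcuguuugggaaga
mdm-miR482b: uCUUUCCUaucccucccauucc
mdm-miR2118a: cUACCGAUgccacuaaguccca
mdm-miR164b: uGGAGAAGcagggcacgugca
fve-miR164c: uGGAGAAGcagggcacaugcu
mdm-miR169a: cAGCCAAGgaugacuugccgg
mdm-miR1511: aCCUAGCUcugauaccaugaa
fve-miR1511: aCCUAGCUcugauaccaugug
mdm-miR159d: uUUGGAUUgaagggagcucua
mdm-miR159a: cUUGGAUUgaagggagcucc
fve-miR168-3p: cCCGCCUUgcaucaacugaau
mdm-miR168a: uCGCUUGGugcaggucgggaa
fve-miR397: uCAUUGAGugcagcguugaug
mdm-miR397a: uUGAGUGCagcguugaugaaa
mdm-miR408b: aCAGGGAAgagguagagcaug
mdm-miR7124a: cACCAAUAucaacuuuauuug

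Despite its family name, mdm-miR482d does not share the seed of mdm-miR482a-3p. Its sequence is largely complementary to mdm-miR482b, with 15 Watson-Crick pairs and 1 wobble pair over 19 aligned positions, as the opposite arms of a hairpin are. mdm-miR482b itself had 2 stigma reads. mdm-miR482d is 21 nt long and starts with A, whereas mdm-miR482a-3p and mdm-miR2118a are 22 nt long, the length known for starting secondary small RNAs from resistance gene transcripts. The target table lists 3 Arabidopsis pairings for mdm-miR482d and 9 for mdm-miR164b. One site of mdm-miR164b, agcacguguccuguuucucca, is listed in 2 of those 9 pairings.

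The wild stigmas gave more miR reads than the cultivated stigmas. These are reads assigned to miRs, and they were not set against the reads sequenced per library. The totals were 1657 reads in Golan, 1777 in Manara and 794 in SASA, against 512 in Spadona, 337 in Hosui and 199 in Shinsui. The classes did not overlap, with 1409 ± 536 reads in wild and 349 ± 157 reads in cultivated stigmas (SD, n = 3 each), and the geometric mean was 4.08-fold higher in wild stigmas. The exact permutation test gave a two-sided p of 0.1, the smallest that 3 against 3 allow. At these depths a miR with no read can still hold up to 0.181% (Golan), 0.169% (Manara) and 0.378% (SASA) of a wild library, and up to 0.586% (Spadona), 0.890% (Hosui) and 1.51% (Shinsui) of a cultivated library, which is the share of 3 reads. These limits and the intervals below cover counting error only. In bulk tissue, fewer cells of a type and less RNA per cell cannot be told apart.

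Either mdm-miR164b or mdm-miR482d was the most abundant miR of every stigma, and together they held most of the reads in 4 of the 6. mdm-miR164b led in the wild stigmas and in Spadona, and mdm-miR482d in Hosui and Shinsui. Their joint share was 60.9% in Golan, 46.8% in Manara and 36.7% in SASA, against 63.9% in Spadona, 72.1% in Hosui and 65.8% in Shinsui.

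**Figure D1:**
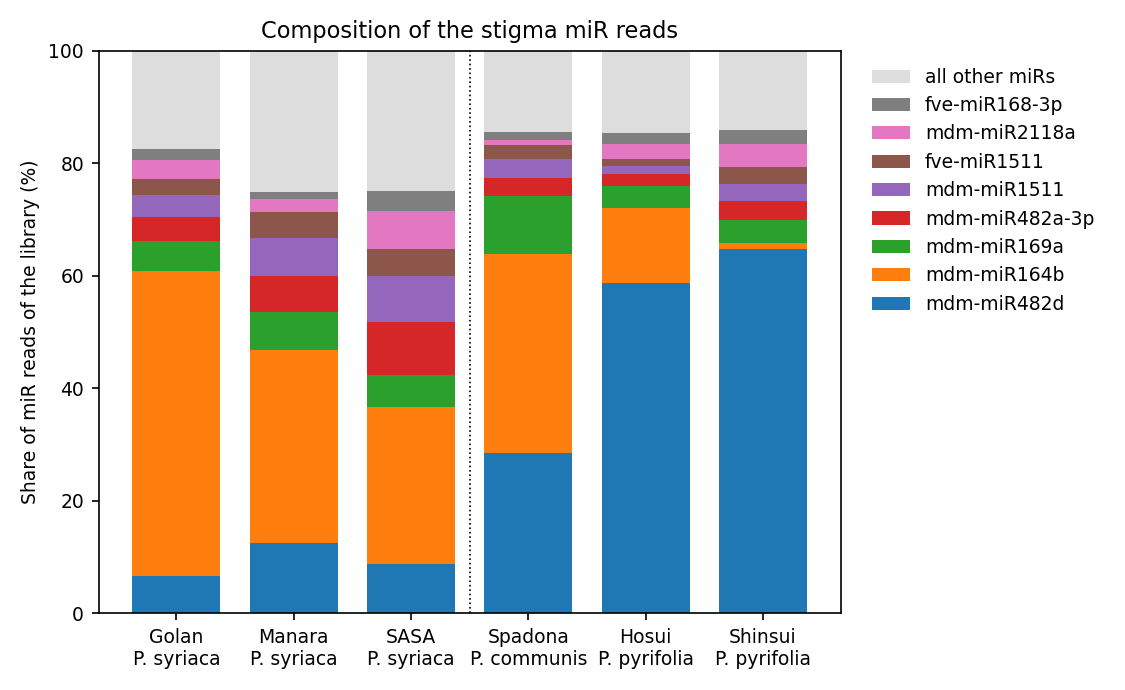
Stacked bars give the share of all miR reads of each stigma library in percent, for the 8 miRs that passed the filter on low counts and for all other miRs together, with the wild libraries left of the dotted line. mdm-miR482d takes from 6.58% to 12.4% of the wild libraries and from 28.5% to 64.8% of the cultivated ones, and mdm-miR164b shrinks to 1.01% in Shinsui.

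mdm-miR482d had 109 reads in Golan, 221 in Manara and 69 in SASA, against 146 in Spadona, 198 in Hosui and 129 in Shinsui. As shares these were 6.58%, 12.4% and 8.69% of the wild libraries, against 28.5%, 58.8% and 64.8% of the cultivated libraries in the same order. The raw reads of the classes overlapped, whereas the shares did not: every wild share was lower than every cultivated share. The highest wild share had a 95% Wilson interval of 11.0% to 14.1% (Manara), and the lowest cultivated share one of 24.8% to 32.6% (Spadona). edgeR's quasi-likelihood test, in which 8 miRs passed the filter on low counts and 2 of these 8 (25.0%) were called, gave mdm-miR482d a log2 fold change of -3.07 (SE 0.81, Benjamini-Hochberg adjusted p = 0.0268). It was lower in wild stigmas under each of the 12 alternatives tried, from -3.66 to -1.98, and passed the threshold in 6 of them, with adjusted p from 1.96e-06 to 0.181. The call was lost without Golan (adjusted p = 0.0957), without Manara (0.158), without SASA (0.149) and without Hosui (0.0847), and with library totals in place of TMM scaling (-2.45, adjusted p = 0.0629).

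mdm-miR164b, whose known targets are the NAC boundary genes, was the most abundant miR of the wild stigmas. It had 900 reads in Golan, 610 in Manara and 222 in SASA, against 181 in Spadona, 45 in Hosui and 2 in Shinsui. These reads were 54.3%, 34.3% and 28.0% of the wild libraries, against 35.4%, 13.4% and 1.01% of the cultivated ones. Spadona lay inside the wild range, and both P. pyrifolia cultivars lay below it. Its log2 fold change was 0.92 (SE 1.03, edgeR, adjusted p = 0.531), so that the difference between the classes was within the spread of the genotypes.

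The ratio of mdm-miR164b to mdm-miR482d does not depend on the library total. It was 8.26 in Golan, 2.76 in Manara and 3.22 in SASA, against 1.24 in Spadona, 0.227 in Hosui and 0.0155 in Shinsui. The wild ratios all stood above the cultivated ones, by 4.68 on the log2 scale (exact permutation test, p = 0.1, two-sided, at the limit of 3 against 3). Spadona was the only cultivar with a ratio above 1. Without 1 library at a time the difference stayed between 2.98 (without Shinsui, whose ratio rests on 2 reads of mdm-miR164b) and 6.14 (without Spadona). This ratio was chosen after the values had been seen.

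Other members of the miR482 family lay on the opposite side of mdm-miR482d. mdm-miR482a-3p, which pairs with resistance gene transcripts, had 70, 114 and 75 reads in Golan, Manara and SASA, against 16, 7 and 7 reads in Spadona, Hosui and Shinsui. Its share was 4.22%, 6.42% and 9.45% in the wild libraries, against 3.13%, 2.08% and 3.52% in the cultivated ones, with no overlap. The log2 fold change was 0.77 (SE 0.26, edgeR, adjusted p = 0.054), just outside the threshold. mdm-miR482a-5p, by its name the other arm of that precursor, had 14, 13 and 4 reads in the wild libraries, against 1, 1 and 0 in the cultivated ones. ppe-miR482c-3p, which shares the seed of mdm-miR482a-3p, had 18, 25 and 19 reads in Golan, Manara and SASA, against 2, 2 and 0 in Spadona, Hosui and Shinsui. The shares of these 3 members did not overlap between the classes over all miR reads, as those of 9 of the 30 miRs with at least 10 stigma reads (30.0%) did not, and overlapped once the reads of mdm-miR482d were taken out of every total. Without the reads of both mdm-miR482d and mdm-miR164b, mdm-miR482a-3p and ppe-miR482c-3p did not overlap again, whereas mdm-miR482a-5p did.

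The ratio of mdm-miR482a-3p to mdm-miR482d was 0.642, 0.516 and 1.09 in Golan, Manara and SASA, against 0.110, 0.0354 and 0.0543 in Spadona, Hosui and Shinsui. The wild ratios were higher, by 3.58 on the log2 scale. Every wild share of mdm-miR482a-3p was above, and every wild share of mdm-miR482d below, the cultivated ones, so the ratios could not overlap. The exact permutation test could therefore only give its limit for 3 against 3 (p = 0.1, two-sided), and adds nothing to the shares. This ratio, too, does not depend on the library total and was chosen after the values had been seen. Summed over its members, miR482 held 12.7%, 21.2% and 21.2% of the wild libraries, against 32.2%, 61.7% and 68.3% of the cultivated ones. The family fell in wild stigmas by 2.35 on the log2 scale (SE 0.37, edgeR, adjusted p = 0.00335), the only one called of 8 families tested (12.5%). The other 7 had log2 fold changes from -0.90 (miR169) to 0.43 (miR164) and did not pass. Under the 13 alternatives its fold change was from -3.34 to -0.35, and the call held in 6. The call was lost without Golan (-2.16, adjusted p = 0.499), without Hosui (-1.82, 0.469), without Shinsui (-2.07, 0.0724) with library totals (-1.56, 0.246), with totals without mdm-miR482d (-2.66, 0.0726), without a filter (-0.35, 0.657) and with the replicate number as a block (-2.35, 0.105).

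mdm-miR1511 belongs to a family described in few plant lineages. It had 67, 120 and 65 reads in Golan, Manara and SASA, against 17, 5 and 6 reads in Spadona, Hosui and Shinsui, or 4.04%, 6.75% and 8.19% of the wild libraries against 3.32%, 1.48% and 3.02% of the cultivated ones. These shares did not overlap. Once the reads of mdm-miR482d were taken out they did, with 4.33%, 7.71% and 8.97% in the wild libraries, against 4.64%, 3.60% and 8.57%. Without the reads of both mdm-miR482d and mdm-miR164b they did not overlap again. The miR rose in wild stigmas by 0.85 on the log2 scale (SE 0.22, edgeR, adjusted p = 0.0268). This call held in 2 of 12 alternatives, with adjusted p from 0.013 to 0.756. Without Manara the adjusted p was 0.158, without SASA 0.149, without Spadona 0.437 and without Hosui 0.0847. DESeq2 gave 0.59 (adjusted p = 0.756), and totals without mdm-miR482d gave 0.42 (adjusted p = 0.731).

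fve-miR1511, which carries the same seed and differs at its 3′ end, had 45, 81 and 38 reads in the wild libraries, against 13, 4 and 6 in the cultivated ones. Its log2 fold change was 0.47 (SE 0.28, edgeR, adjusted p = 0.235). Reads of 1 pear miR can fall on both names, and the ratio of mdm-miR1511 to fve-miR1511 was 1.49, 1.48 and 1.71 in Golan, Manara and SASA, against 1.31, 1.25 and 1 in Spadona, Hosui and Shinsui. The summed family held 6.76%, 11.4% and 13.0% of the wild libraries, against 5.86%, 2.97% and 6.03% of the cultivated ones.

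The remaining 3 miRs that could be tested did not pass. mdm-miR169a, a regulator of NF-YA transcription factors, had 87, 120 and 45 reads in Golan, Manara and SASA, against 53, 13 and 8 in Spadona, Hosui and Shinsui. Spadona had the highest share (10.4%), above the wild libraries (5.25%, 6.75% and 5.67%) and above Hosui (3.86%) and Shinsui (4.02%). Once the reads of mdm-miR482d were taken out, its share was lower in every wild stigma (5.62%, 7.71% and 6.21%) than in every cultivated one (14.5%, 9.35% and 11.4%).

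mdm-miR2118a, a 22 nt regulator of resistance genes, had 57, 41 and 54 reads in the wild libraries, against 5, 9 and 8 in the cultivated ones. Its share was 3.44%, 2.31% and 6.80% in Golan, Manara and SASA, against 0.977%, 2.67% and 4.02% in Spadona, Hosui and Shinsui, so that Spadona had the lowest share and the classes overlapped. fve-miR168-3p, the opposite arm of the miR168 that acts on AGO1, had 33, 23 and 28 reads in the wild libraries, against 7, 7 and 5 in the cultivated ones, and its shares overlapped. The log2 fold changes of mdm-miR169a, mdm-miR2118a and fve-miR168-3p were -0.46 (SE 0.28, edgeR, adjusted p = 0.235), 0.34 (SE 0.67, 0.722) and -0.22 (SE 0.60, 0.723), and each changed sign under at least 1 alternative.

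**Figure D2:**
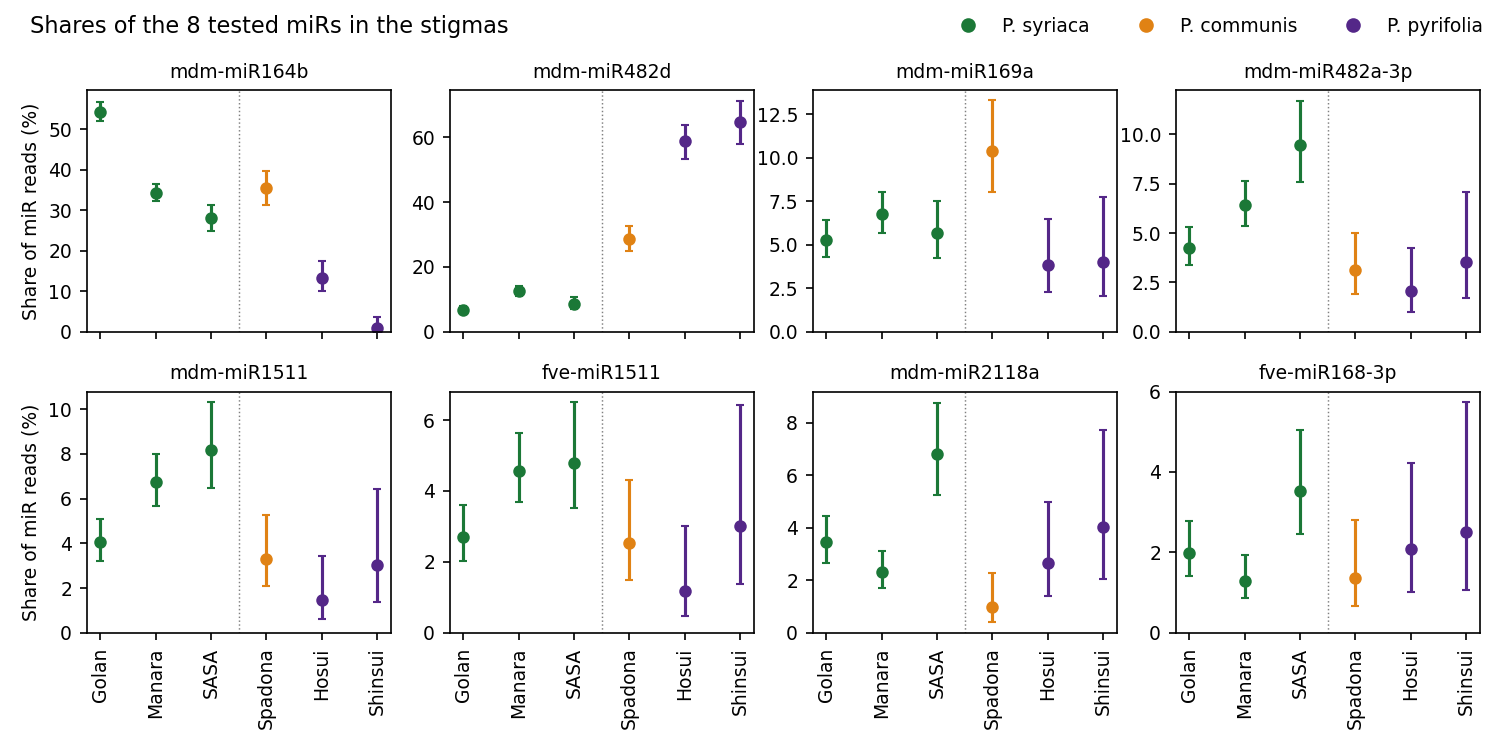
Points give the share of miR reads in percent for each of the 8 tested miRs in each stigma library, with 95% Wilson intervals that cover counting error only, on a linear axis that differs between panels. mdm-miR482d is lower in the 3 wild stigmas. mdm-miR482a-3p and mdm-miR1511 are higher in the wild stigmas by their points, and some of their intervals overlap between the classes. mdm-miR169a peaks in Spadona (10.4%), and mdm-miR2118a is lowest in Spadona (0.977%).

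The choice of scaling moved the fold changes together. Relative to TMM scaling, the median log2 fold change of the 8 miRs shifted by 0.43 with library totals and by -0.52 with totals without mdm-miR482d, against a median of 0.41 under TMM. Simulated data showed that edgeR with TMM goes wrong at this depth when several leading miRs change at once, and ratios within a library are free of that limit. mdm-miR482d was the lowest of the 8 miRs in each of these scalings. A shift common to all 8 leaves their order as it is, so this rank is no check on the scaling. The totals without mdm-miR482d also take its own reads out of the total it is set against.

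**Figure D3:**
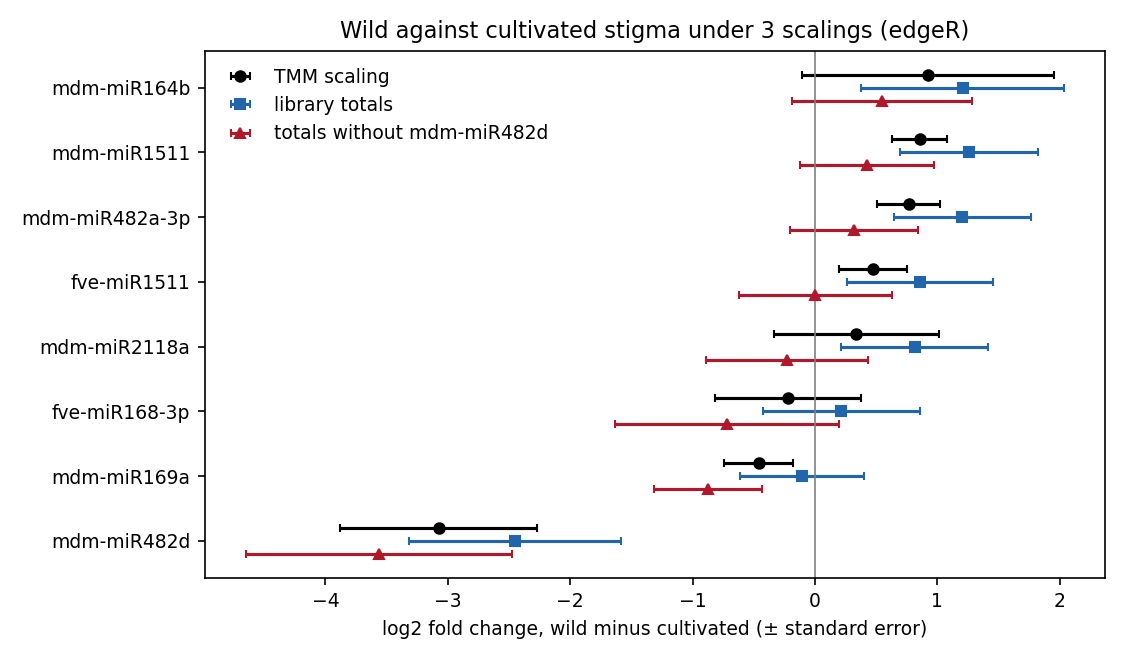
Points give the log2 fold change, wild minus cultivated stigma, of the 8 tested miRs from edgeR under 3 scalings, with bars of 1 standard error. mdm-miR482d stands apart at -3.07 under TMM, -2.45 with library totals and -3.56 without its own reads in the totals, and fve-miR168-3p and mdm-miR2118a change side with the scaling.

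Among the 30 miRs with at least 10 stigma reads, the shares of the classes did not overlap for 9 (30.0%). Of these, 7 were higher in wild stigmas (23.3%) and 2 were lower (6.67%). The minimum of 10 reads was set over all stigmas, and the wild ones gave 80.1% of the reads. A miR could thus pass mostly through its wild reads, so the split of 7 against 2 shows no direction of the miRs as a set. Besides the miRs given above, the higher ones were mdm-miR159a, a regulator of GAMYB genes, with 23, 32 and 18 reads in Golan, Manara and SASA, against 3, 4 and 2 in Spadona, Hosui and Shinsui. mdm-miR168a, which acts on AGO1, had 12, 20 and 10 reads in the wild libraries, against 3, 0 and 0 in the cultivated ones. fve-miR164c had 6, 8 and 2 reads in the wild libraries, against 1, 0 and 0 in the cultivated ones. Of the 7, the 3 read in every cultivated stigma (mdm-miR482a-3p, mdm-miR1511 and mdm-miR159a) stood higher without a 0 among the counts. The other 4 (mdm-miR168a, fve-miR164c, mdm-miR482a-5p and ppe-miR482c-3p) had no read in Shinsui, where up to 1.51% can go unread, and their lowest wild shares were within that limit.

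The other lower one was mdm-miR7124a, with 2, 6 and 1 reads in Golan, Manara and SASA, against 3, 5 and 2 in Spadona, Hosui and Shinsui. Its share was 0.121%, 0.338% and 0.126% in the wild libraries, against 0.586%, 1.48% and 1.01% in the cultivated ones. With the reads of mdm-miR482d left out of the totals, 1 of the 30 stood higher in every wild stigma, which was fve-miR164c with its 0 reads in Hosui and Shinsui, and mdm-miR482d (its reads set against that same total), mdm-miR169a and mdm-miR7124a were lower. With the reads of mdm-miR164b left out as well, fve-miR164c overlapped, and 4 stood higher, mdm-miR482a-3p, ppe-miR482c-3p, mdm-miR1511 and mdm-miR168a. mdm-miR159d, which has the seed of mdm-miR159a, had 23, 37 and 39 reads in the wild libraries, against 2, 4 and 3 in the cultivated ones, with overlapping shares.

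By families, 4 of the 23 with at least 10 stigma reads (17.4%) did not overlap in share. By shares as read, miR1511 and miR7121 stood higher in wild stigmas (8.70%), and miR482 and miR7124 were lower (8.70%). Once the reads of mdm-miR482d were left out, miR1511 overlapped. Its shares were then 7.24%, 13.0% and 14.2% in Golan, Manara and SASA, against 8.20%, 7.19% and 17.1% in Spadona, Hosui and Shinsui. It also overlapped with the reads of mdm-miR164b left out as well. miR7121 had 3, 4 and 7 reads in Golan, Manara and SASA and none in a cultivated stigma. The lowest of its wild shares was 0.181%, under the limit of 3 reads in every cultivated library, so that a difference between the classes in miR7121 was not detectable at this depth.

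Of the 355 sequences of the table, 114 had a read in a stigma, of which 65 were read in both classes, 39 in wild stigmas alone and 10 in cultivated stigmas alone. The 39 held 214 reads, or 4.06% of all stigma reads, and the 10 held 11 reads. The 13 miRs read in every stigma held 85.2% of the reads. The wild class had 4228 reads and the cultivated class 1048, so a miR with few wild reads could go unread in the cultivated libraries by depth alone.

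The copper miRs were the most abundant among those of the wild class alone, and they were read in Golan and Manara and not in SASA. miR397 and miR408 act on laccases, plantacyanin and other copper proteins and are known to rise when copper is short. fve-miR397 had 23, 18 and 0 reads in Golan, Manara and SASA, and none in Spadona, Hosui or Shinsui. mdm-miR397a had the same counts in all 6 stigmas, and the sequences overlap, so the same reads may stand under both names. mdm-miR408b had 27, 12 and 0 reads in the wild libraries and none in a cultivated one.

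At the pooled wild share, 10.2 reads of fve-miR397 and 9.67 of mdm-miR408b would have been met in the 1048 cultivated reads. Against a limit of 3 reads over the cultivated class, the pooled wild shares were 3.39-fold (fve-miR397) and 3.22-fold (mdm-miR408b). Both miRs were named because no cultivated stigma had a read of them, so these folds partly follow from that choice. Pooled reads do not measure the spread among genotypes, so the folds are no lower bound for the class. SASA, with 794 reads, had no read of either miR. At the mean wild share, 4.10, 2.70 and 1.59 reads of fve-miR397 would have been met in Spadona, Hosui and Shinsui. For mdm-miR408b these numbers were 3.93, 2.59 and 1.53. Those of Hosui and Shinsui are under 3 reads, so absence from either P. pyrifolia cultivar alone was not detectable. All copper miRs together, with both miR397 names in the sum, made up 4.41% of the Golan reads and 2.70% of the Manara reads. With mdm-miR397a left out they were 50 reads in Golan (3.02%) and 30 in Manara (1.69%). The exudates of the wild class held 5 reads of fve-miR397 and 7 of mdm-miR408b, against 0 and 1 in cultivated exudates.

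The next miRs of the wild class alone were mdm-miR10986 (3, 5 and 0 reads in Golan, Manara and SASA), mdm-miR7121a (1, 2 and 4) and mdm-miR7121d (2, 2 and 3). Fewer than 2 reads of each would have been met in the cultivated libraries at the wild share, so their absence was not detectable at this depth. The miR of the cultivated class alone with most reads was ppe-miR8122-3p, with 1 read each in Hosui and Shinsui, and the other 9 had 1 read each.

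A miR was called present in a species with at least 2 reads in 1 of its stigmas. Of 71 such miRs, 15 were present in all 3 species, 44 in P. syriaca alone, 11 in P. syriaca and P. communis, and 1 in P. syriaca and P. pyrifolia. P. syriaca, with 3 libraries and 4228 reads, also had the most reads by which a miR could be called present.

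The wild stigmas had more miRs with at least 2 reads also at equal depth, except when the reads of mdm-miR482d were left out. At 199 reads, the total of Shinsui, 15.9, 18.4 and 17.1 miRs with at least 2 reads would be met in Golan, Manara and SASA, against 12.4, 11.9 and 12.0 in Spadona, Hosui and Shinsui. The classes did not overlap, with 17.1 ± 1.22 miRs in wild and 12.1 ± 0.266 miRs in cultivated stigmas (SD, n = 3 each, exact permutation test, p = 0.1, two-sided, at the limit of 3 against 3). Counting miRs with at least 1 read, the numbers were 27.0, 35.1 and 31.7 in the wild stigmas, against 30.4, 30.4 and 30.0 in the cultivated ones, and the classes overlapped (difference 0.954, exact permutation test, p = 0.7, two-sided). At 70 reads the means were 9.50 in wild and 6.02 in cultivated stigmas with all miRs, and 9.11 in wild and 9.15 in cultivated stigmas without mdm-miR482d. Without mdm-miR482d and mdm-miR164b, at 68 reads, they were 12.0 in wild and 10.4 in cultivated stigmas, with overlap. The comparison at 70 reads with all miRs was chosen after the values had been seen.

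The effective number of miRs, which is the number of equally abundant miRs with the same Shannon entropy, was 8.19, 15.2 and 15.7 in Golan, Manara and SASA, against 8.84, 6.35 and 5.50 in Spadona, Hosui and Shinsui. Golan, in which mdm-miR164b held 54.3% of the reads, lay below Spadona. Without mdm-miR482d the order of the means was reversed, with 12.2 in wild and 15.5 in cultivated stigmas.

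Reads on 22 nt miRs made up 10.3%, 12.0% and 20.4% of the wild libraries, against 5.86%, 6.23% and 8.04% of the cultivated ones. Reads on miRs that start with U, the base preferred by AGO1, made up 69.8%, 58.8% and 54.8% of the wild libraries, against 48.0%, 21.4% and 12.1% of the cultivated ones. Neither feature overlapped between the classes (exact permutation test, two-sided p = 0.1, adjusted over 4 features 0.133). Without mdm-miR482d, a 21 nt miR that starts with A, the difference was 0.285 percentage points for 22 nt and 16.2 percentage points for U, and both features overlapped.

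The families were also grouped by known targets, each miR going with the number in its name. mdm-miR482d fell in the resistance gene group by its name alone, and whether it acts on resistance genes was not tested. Families that act on resistance genes (miR482 and miR2118 among them), of which 8 of 20 sequences in the table were read, held 16.2%, 23.5% and 28.0% of the reads in Golan, Manara and SASA, against 33.2%, 64.4% and 72.4% in Spadona, Hosui and Shinsui. This was the only group whose shares did not overlap between the classes, and mdm-miR482d makes up most of it in the cultivated stigmas. Its other miRs had 159, 197 and 153 reads in the wild stigmas, against 24, 19 and 15 in the cultivated ones, or 9.60%, 11.1% and 19.3% of the wild libraries against 4.69%, 5.64% and 7.54% of the cultivated ones, higher in wild stigmas without overlap. Of the reads without mdm-miR482d they made up 10.3%, 12.7% and 21.1% in the wild stigmas, against 6.56%, 13.7% and 21.4% in the cultivated ones, and the classes overlapped. Families that act on transcription factors, with 41 of 76 sequences read, held 67.3%, 54.6% and 46.9% of the wild libraries, against 52.1%, 26.4% and 11.1% of the cultivated ones. miR164 alone gave 1992 of the 2835 stigma reads of this group.

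Families that act on the silencing proteins DCL1, AGO1 and AGO2 held 2.96%, 3.32% and 5.92% of the wild libraries, against 1.95%, 2.08% and 3.02% of the cultivated ones. Families of nutrient supply, miR397 (under both names) and miR408 among them, held 4.89%, 3.49% and 0% of the reads in Golan, Manara and SASA, against 1.95%, 0% and 1.51% in Spadona, Hosui and Shinsui. In Spadona these were reads of miR395 and miR399, which act on sulfate and phosphate supply, and in Shinsui of miR399. Families of the auxin pathway held 0.181%, 0.900% and 1.51% of the wild libraries, against 1.56%, 0.297% and 0.503% of the cultivated ones. The young families read were those with a number above 5000 and miR1511, with 36 of 188 sequences read. They held 8.39%, 13.8% and 17.1% of the wild libraries, against 8.20%, 6.82% and 11.1% of the cultivated ones. miR1511 alone gave 469 of the 608 stigma reads of the young families. It held 6.76%, 11.4% and 13.0% of the wild libraries, against 5.86%, 2.97% and 6.03% of the cultivated ones. The share left to the other young families was not higher in wild stigmas.

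P. communis did not keep to 1 side of the other species. Spadona lay between the ranges of P. syriaca and P. pyrifolia for 2 of the 8 tested miRs (mdm-miR482d and mdm-miR1511), inside the P. syriaca range for 2 (mdm-miR164b and fve-miR168-3p), inside the P. pyrifolia range for 2 (mdm-miR482a-3p and fve-miR1511), above both for mdm-miR169a and below both for mdm-miR2118a. Its share was nearer the P. syriaca mean for 4 miRs and nearer the P. pyrifolia mean for 4. Over the 30 miRs with at least 10 reads these numbers were 17 and 13.

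In the fit with 3 species, the single P. communis library is assumed to vary like the others. P. syriaca stigmas were lower than P. pyrifolia stigmas in mdm-miR482d by a log2 fold change of -3.47 (SE 0.65, edgeR, adjusted p = 0.00766), the only call of 8 (12.5%). This call was lost without Golan (-3.41, adjusted p = 0.0786) and without SASA (-3.33, 0.108). For mdm-miR482d, P. syriaca minus P. communis was -1.64 (SE 0.75, adjusted p = 0.0999) and P. communis minus P. pyrifolia was -1.83 (SE 0.93, adjusted p = 0.314).

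No miR was called by edgeR between P. syriaca and P. communis (0.00% of 8, with 4 at an unadjusted p under 0.05) or between P. communis and P. pyrifolia (0.00% of 8, with 1 at an unadjusted p under 0.05). DESeq2 was not run on these contrasts. The largest of the differences in these contrasts was in mdm-miR2118a, at 2.00 for P. syriaca minus P. communis (SE 0.77, adjusted p = 0.0826) and -2.41 for P. communis minus P. pyrifolia (SE 0.88, adjusted p = 0.225). Without Manara, 6 miRs were called between P. syriaca and P. communis and 3 between P. communis and P. pyrifolia, and without Shinsui 3 were called between P. syriaca and P. communis, so that these counts rest on single libraries.

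The 8 families were fitted in the same way, a comparison added after the values had been seen. P. syriaca minus P. communis was -1.80 for miR482 (SE 0.18, edgeR, adjusted p = 0.00206) and -1.74 for miR169 (SE 0.33, edgeR, adjusted p = 0.0154), and these 2 were called (25.0%). miR169 held 5.43%, 7.15% and 5.79% of the reads in Golan, Manara and SASA, against 10.7% in Spadona. Both calls were lost without Golan, without Hosui and without Shinsui (0 called each), without a filter, with library totals and with totals without mdm-miR482d. Over 9 alternatives the difference was from -1.87 to -0.30 for miR482 and from -1.79 to -0.26 for miR169, and each passed in 2.

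P. syriaca minus P. pyrifolia was -2.57 for miR482 (SE 0.16, edgeR, adjusted p = 0.000196), the only call of 8 families (12.5%). It passed in 6 of 9 alternatives, those with 1 library left out among them, and was lost without a filter (-0.37, adjusted p = 0.663), with library totals (-1.82, 0.0613) and with the replicate number as a block (-2.53, 0.11). No family was called between P. communis and P. pyrifolia by edgeR (0.00% of 8, with 2 at an unadjusted p under 0.05). The nearest were miR169 at 1.68 (SE 0.40) and miR482 at -0.77 (SE 0.22), both at an adjusted p of 0.0729, and 1 or 2 families were called without Manara, without SASA, without Hosui or without Shinsui.

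Over all miRs, Spadona stood nearer the wild stigmas than the P. pyrifolia stigmas. The Bray-Curtis distance of read shares, which is 0 for equal profiles and 1 for profiles with nothing in common, was 0.263 to 0.382 between Spadona and the P. syriaca stigmas, against 0.421 to 0.511 between Spadona and the P. pyrifolia stigmas. P. syriaca stigmas differed from each other by 0.217 to 0.336, Hosui and Shinsui by 0.205, and P. syriaca from P. pyrifolia by 0.542 to 0.692.

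Without mdm-miR482d, Hosui and Shinsui differed by 0.483, and Spadona stood 0.223 to 0.370 from P. syriaca and 0.355 to 0.630 from P. pyrifolia, so that these ranges overlapped. Without mdm-miR482d and mdm-miR164b, P. syriaca and P. pyrifolia differed by only 0.322 to 0.421, and Spadona stood 0.357 to 0.425 from P. syriaca and 0.451 to 0.471 from P. pyrifolia. Distances grow as libraries get shallower, and Hosui and Shinsui were the shallowest. The share of this in the distances was not tested.

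**Figure D4:**
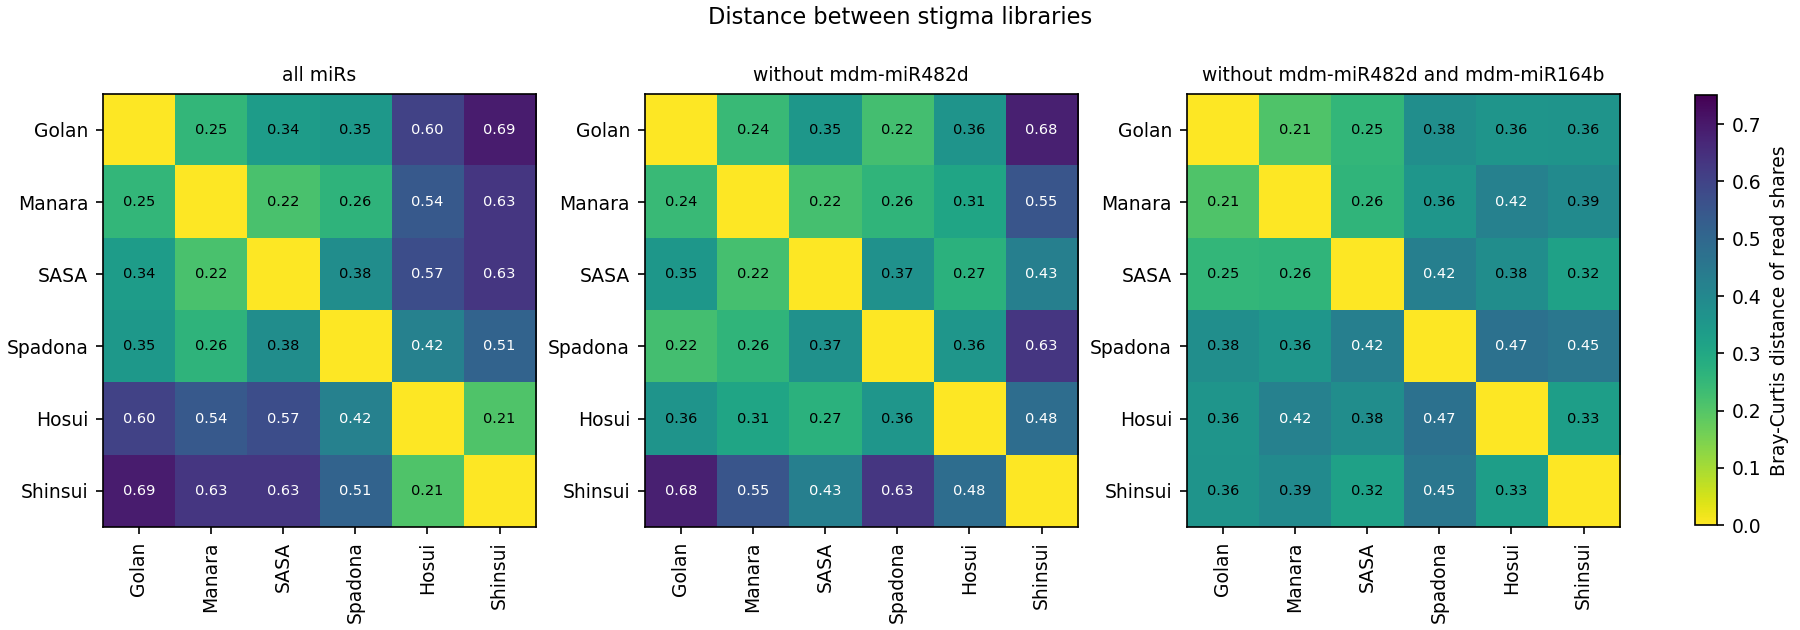
Cells give the Bray-Curtis distance between the read shares of each pair of stigma libraries, over all miRs, without mdm-miR482d, and without mdm-miR482d and mdm-miR164b, with the wild libraries first. Over all miRs Spadona lies 0.263 to 0.382 from the wild libraries and 0.421 to 0.511 from Hosui and Shinsui, and the gap between wild and P. pyrifolia libraries narrows to 0.322 to 0.421 once both leading miRs are left out.

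The same contrast was set beside that of the exudates, which are the liquid on the stigma surface. mdm-miR482d made up 26.0%, 49.4% and 59.3% of the miR reads in the exudates of Golan, Manara and SASA, against 38.8%, 41.5% and 64.6% in those of Spadona, Hosui and Shinsui, and the classes overlapped. These are shares of 50, 176 and 27 reads, against 49, 41 and 79 reads. In the fit over both tissues, the wild minus cultivated difference of mdm-miR482d was -2.96 in stigma (SE 0.57, edgeR, adjusted p = 0.0012) and -0.40 in exudate (SE 0.54, adjusted p = 0.641).

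The difference between the tissues was -2.57 (SE 0.77, edgeR, adjusted p = 0.0267), and mdm-miR482d was the 1 of 4 miRs called (25.0%). With the genotype as a block, since both tissues came from the same genotypes, it was -2.41 (adjusted p = 0.0361). The call was lost without SASA (-2.13, adjusted p = 0.159), Spadona (-2.59, 0.16), Hosui (-2.53, 0.161) or Shinsui (-2.52, 0.301).

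**Figure D5:**
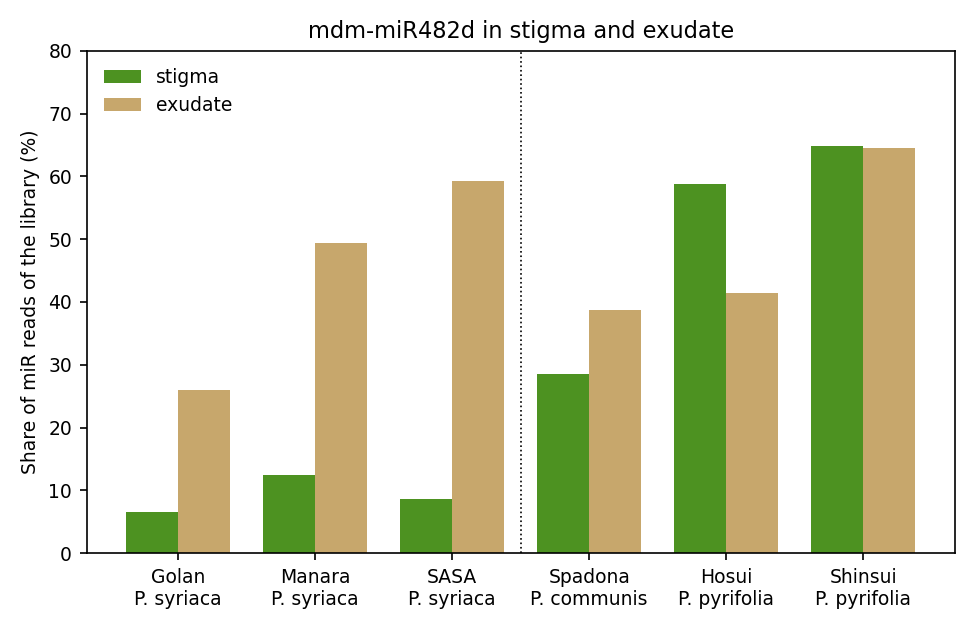
Bars give the share of miR reads held by mdm-miR482d in percent, in the stigma and the exudate of each genotype, 1 library per bar and wild genotypes left of the dotted line. In the wild genotypes the stigma share (6.58% to 12.4%) lies below the exudate share (26.0% to 59.3%), as it does in Spadona (28.5% in stigma and 38.8% in exudate). In Hosui the stigma share is higher, and in Shinsui the shares are nearly equal (64.8% in stigma and 64.6% in exudate).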

How the data were processed

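The authors sequenced small RNA, trimmed the reads with Cutadapt 1.1, and used miRExpress to match them, with some mismatches, to miRBase entries of apple, peach and strawberry, and averaged the counts of identical sequences. The deposited counts are whole reads per mature miR and were not normalized. The target tables, other values deposited by the authors, were used for sequences and sites only, and the match of their loci to single pairings is uncertain. The deposited tables of GO terms and pollen loci were not used.

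Counts were tested with edgeR 4.0.16 (quasi-likelihood, TMM, filterByExpr, FDR of 0.05) in R 4.3.3, over the 8 miRs or families that passed. DESeq2 1.42.0 was an alternative. Tested on simulated data at the depth of the stigmas, edgeR recovered a 16-fold rise, in the wild class, of 1 leading miR. That miR was neither mdm-miR164b nor mdm-miR482d. The simulated spread between libraries was a set value, not estimated from these genotypes, so recovery at their own spread was not tested. Smaller changes and falls were not simulated, so recovery of changes such as those called here was not tested. When several leading miRs were changed together, TMM scaling over so few miRs took the unchanged ones as changed and missed most of the changed ones, so the calls hold only as far as most of the 8 tested features keep their share. Totals, miR numbers and features were compared by exact permutation with scipy 1.17.1 in Python 3.11.15. Each class had 3 libraries of 199 to 1777 miR reads.

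Named were every tested miR and family, the most read miRs of 1 class alone, and those with at least 10 stigma reads whose shares did not overlap. mdm-miR159d, mdm-miR482b and the ratios were chosen after their values were seen. The members and lists were chosen with earlier results of these data known.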

Additional observations from a re-analysis of the deposited data

Results flagged for a closer look

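The wild minus cultivated difference of mdm-miR482d was larger in stigma than in exudate, by -2.57 on the log2 scale (edgeR, interaction of class and tissue, adjusted p = 0.0267, SE 0.77). The exudates it rests on held 27 to 176 miR reads each.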

How the results depend on the processing

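For miRs of wild against cultivated stigma, where 2 were called, 4 were called of 114 without a filter, 1 by DESeq2, 1 with RLE factors, 1 with totals without mdm-miR482d, 0 with library totals (3 at an unadjusted p under 0.05) and 0 to 4 with 1 library left out. For families, where 1 was called, these were 5 of 54 without a filter, 0 with library totals, 0 with totals without mdm-miR482d and 0 to 1 with 1 library left out. 5 of the 7 other families changed sign under some alternative. Without a filter, 2 were called between P. syriaca and P. communis, 8 between P. syriaca and P. pyrifolia and 0 between the tissues. With 1 library left out, the numbers called were 0 to 6 for P. syriaca minus P. communis, 0 to 2 for P. syriaca minus P. pyrifolia, 0 to 3 for P. communis minus P. pyrifolia and 0 to 1 between the tissues. For families between the species, without a filter 0 were called for P. syriaca minus P. communis, 7 for P. syriaca minus P. pyrifolia and 1 for P. communis minus P. pyrifolia; library totals called 0 in each contrast, and totals without mdm-miR482d 0, 1 and 0 in that order. With 1 library left out these were 0 to 2, 1 to 2 and 0 to 2, and with the replicate block 1, 0 and 1.

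The sign turned for fve-miR168-3p without a filter (0.67) and with library totals (0.22), with -0.94 to 0.25 over libraries left out; for mdm-miR169a without a filter (0.38); and for mdm-miR2118a with totals without mdm-miR482d (-0.23), with -0.57 to 1.01 over libraries left out. Without mdm-miR482d, wild minus cultivated was -0.0391 for miRs at equal depth, -3.23 for the effective number, -0.484 for 20 nt reads and 0.745 percentage points for 21 nt reads. The shift of these features follows from taking out a 21 nt miR with many cultivated reads. The next counts cover values of single miRs, of the miR482 and miR169 families, and of the ratio of mdm-miR164b to mdm-miR482d. For the ratio, which had no threshold, only the direction was counted. Of these values, 142 kept their direction and side of any threshold, 48 lost the call, 15 gained it and 9 changed sign. The causes of the other changes were not tested.

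The labels give replicate numbers and name no link between libraries of the same number. Deviations from the species mean, over 8 miRs, correlated with r = 0.899 for the pair numbered 1 and 0.0797 for the pair numbered 2. The deviations of Hosui and Shinsui mirror each other, so these values are not separate checks and do not decide whether such a link exists. With the replicate block, 0 miRs (mdm-miR482d -2.99, adjusted p = 0.181; mdm-miR2118a -0.020) and 0 families were called between the classes, 1 miR between P. syriaca and P. communis, 0 between P. syriaca and P. pyrifolia and 2 between P. communis and P. pyrifolia, and the genotype block between the tissues kept its call at -2.41. With 199 to 512 miR reads in the cultivated stigmas, only the leading miRs could be compared.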
